A study of Mus musculus with 6 samples.

Results

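Long non-coding RNA (lncRNA) genes with a BAZ2A binding site in mouse embryonic stem cells (ESCs) were taken from the list of BAZ2A peaks by gene type. A gene was kept where GENCODE M21 calls it lincRNA (an intergenic lncRNA), antisense, processed_transcript, sense_overlapping, bidirectional_promoter_lncRNA or TEC (a transcript yet to be tested by experiment). The other lncRNA types of the rule, sense_intronic, 3prime_overlapping_ncRNA and macro_lncRNA, gave no gene, and Rmrp, the RNA of a ribonuclease, was left out. This gave 135 of the 2288 genes with a peak, and 180 of the 3127 peaks. The annotation holds 13373 genes of these types in all, of which 1.01% thus had a peak, beside 9.66% of 22028 protein-coding genes (2128 genes). A single peak was found in 110 of the genes, 2 in 14, 3 in 7, 4 in Gas5, 5 in Platr21 and 6 each in Malat1 and AC174471.1.

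The data are from iCLIP, an assay in which RNA is joined to its bound proteins by UV light, precipitated with the protein and sequenced. All 6 libraries came from nuclei of E14 ESCs grown in N2B27 medium with LIF/2i, in which endogenous BAZ2A carries Flag and HA tags, and all were precipitated with anti-FLAG. In 3 libraries the cells were crosslinked, and in 3 background libraries they were not. According to the methods, a gel showed no amplified product for the uncrosslinked samples. Each of these was mixed in equal volume with its crosslinked replicate before sequencing. The peaks come as 1 pooled list, so no value below has a replicate error, and the number of reads behind each peak is unknown. Each peak has a score from the peak caller, whose scale is not stated, and a mode, a single position inside the peak. Of 10 ESC marker genes, 8 had a peak, among them Pou5f1 and Nanog, beside the 9.66% of all protein-coding genes.

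LncRNAs do not encode proteins, and many stay in the nucleus, where some shape nuclear bodies or act on chromatin near their own gene. Others are hosts: the functional product is a small nucleolar RNA (snoRNA) or a microRNA (miRNA) cut out of the transcript. BAZ2A is a chromatin protein, also called TIP5, that binds RNA through its TAM domain and is known for its role at ribosomal RNA genes.

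The peaks were first sorted by what else lies at the same place, each into the first group that applied. The largest group, 74 peaks (41.1%, Wilson 95% interval 34.2 to 48.4), was listed a second time, with the same start and end, under a gene on the opposite strand. Among peaks of protein-coding genes such double listing was found for 149 of 2918 (5.11%, 4.36 to 5.97). These shares are not independent. Of 151 doubly listed peaks of all genes outside the lncRNA set, 70 were the other side of a lncRNA peak. The choice of gene types also enters, as 55 of the 74 were in antisense genes, which by type lie opposite another gene. A further 10 lncRNA peaks (5.56%, 3.05 to 9.92) were also listed under a protein-coding gene on the same strand. Of the rest, 18 peaks lay at a snoRNA, a miRNA or a transfer RNA (tRNA), on either strand. The remaining peaks, 24 exonic and 54 intronic, had none of these. The 96 peaks listed on 1 strand only and under no protein-coding gene came from 74 genes. Of the 96, 7 still overlapped a listed peak on the other strand that had a different start or end. Intervals on shares cover the counting of peaks only.

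**Figure D1:**
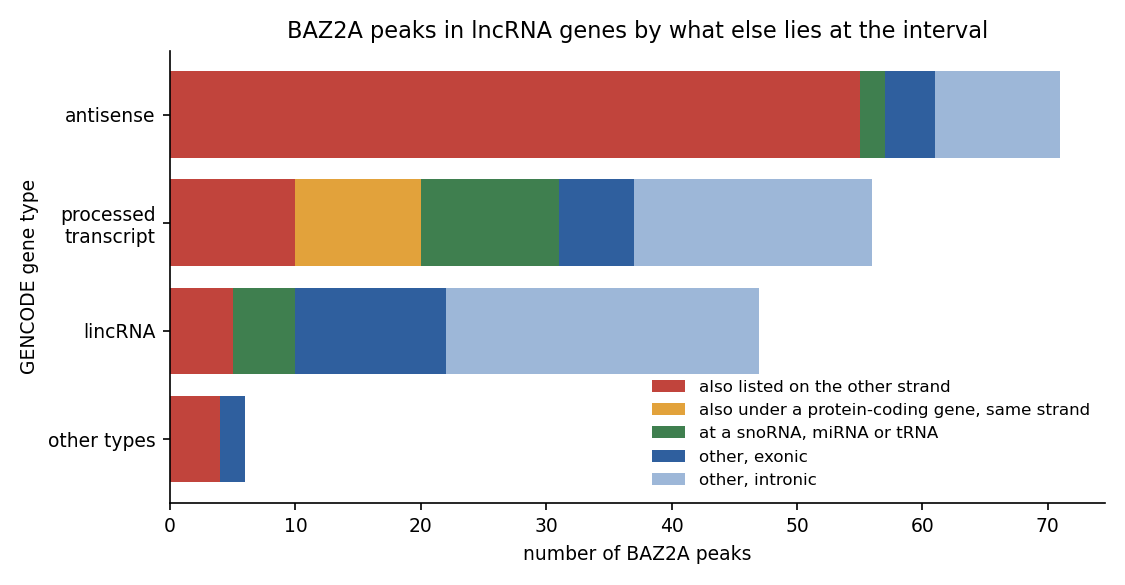
Number of BAZ2A peaks in lncRNA genes (x axis) by GENCODE gene type (y axis), with colours for what else lies at the peak. Peaks listed on both strands make up 55 of 71 peaks of antisense genes, 10 of 56 of processed transcripts and 5 of 47 of lincRNAs.

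Malat1, a nuclear-retained lncRNA found at nuclear speckles, had 6 peaks, which together with AC174471.1 was the highest number in a lncRNA gene. The gene (ENSMUSG00000092341) lies on the minus strand at chr19:5795690-5802672 in mm10. From the 5' to the 3' end its peaks scored 26.2, 14.1, 15.6, 38.5, 22.6 and 18.9. The fourth of them was the strongest, and it ranked 51 among all 3127 peaks. Summed over the gene, the score of Malat1 was 135.8, the highest of the lncRNA genes, rank 14 of all 2288 genes and 9.20% of the summed score of all lncRNA peaks.

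All 6 Malat1 peaks were exonic, were listed under no other gene and matched a single place in the genome. They are shown because Malat1 is the lncRNA with the highest summed score, and the capitals mark 5 nt around the mode. All genome sequences here were read from the RefSeq copy of GRCm38.p6 (mm10), on the strand of the peak.
Malat1 positions 2804 to 2913, chr19:5799760-5799869 (minus strand): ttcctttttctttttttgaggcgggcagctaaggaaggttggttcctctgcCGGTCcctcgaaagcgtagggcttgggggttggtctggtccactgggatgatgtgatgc
Malat1 positions 4138 to 4229, chr19:5798444-5798535 (minus strand): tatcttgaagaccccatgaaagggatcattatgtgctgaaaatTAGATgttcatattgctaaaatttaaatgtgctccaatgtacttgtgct
Malat1 positions 4682 to 4761, chr19:5797912-5797991 (minus strand): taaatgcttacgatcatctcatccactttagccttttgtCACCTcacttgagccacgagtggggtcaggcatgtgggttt
Malat1 positions 4917 to 5015, chr19:5797658-5797756 (minus strand): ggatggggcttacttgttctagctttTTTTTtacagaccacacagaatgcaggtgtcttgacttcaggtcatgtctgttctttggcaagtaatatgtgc
Malat1 positions 5183 to 5297, chr19:5797376-5797490 (minus strand): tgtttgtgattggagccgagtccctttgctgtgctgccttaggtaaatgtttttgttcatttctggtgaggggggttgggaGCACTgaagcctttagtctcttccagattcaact
Malat1 positions 5754 to 5882, chr19:5796791-5796919 (minus strand): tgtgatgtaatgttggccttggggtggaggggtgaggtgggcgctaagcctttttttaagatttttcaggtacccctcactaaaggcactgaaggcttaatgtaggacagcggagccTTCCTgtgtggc
The peaks were not spread over the whole RNA of 6983 nt. None began before position 2804 or ended after position 5882, counted from the 5' end, and 5 of the 6 lay between positions 4138 and 5882. Peaks covered 625 nt, or 8.95% of the RNA. Their GC content ranged from 33.7% to 54.5%, beside 42.5% for the whole RNA, and the mode was a G in 2 peaks, a C in 2, an A in 1 and a U in 1. With 0.859 peaks per kb, Malat1 ranked 7 of 135 by the length of the gene and 56 by the length of its merged exons. Both densities count all peaks of a gene, intronic ones included, while all 6 Malat1 peaks were exonic. The rank by merged exons is therefore not a rank by exonic peaks.

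The oligonucleotides that the study used against Malat1 fall around the strongest peak. The gapmer, an antisense oligonucleotide that directs cleavage of its target RNA, is complementary to positions 5040 to 5055, 25 nt from that peak. It is printed because it targets the stretch beside the strongest peak, and no base is in capitals.
Malat1 gapmer: gtcacaatgcattcta
The primers of the quantitative PCR lie at positions 4869 to 4890 and 5047 to 5066, 27 and 32 nt from the peak on either side. The amplified stretch therefore holds the whole of the peak at positions 4917 to 5015.

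**Figure D2:**
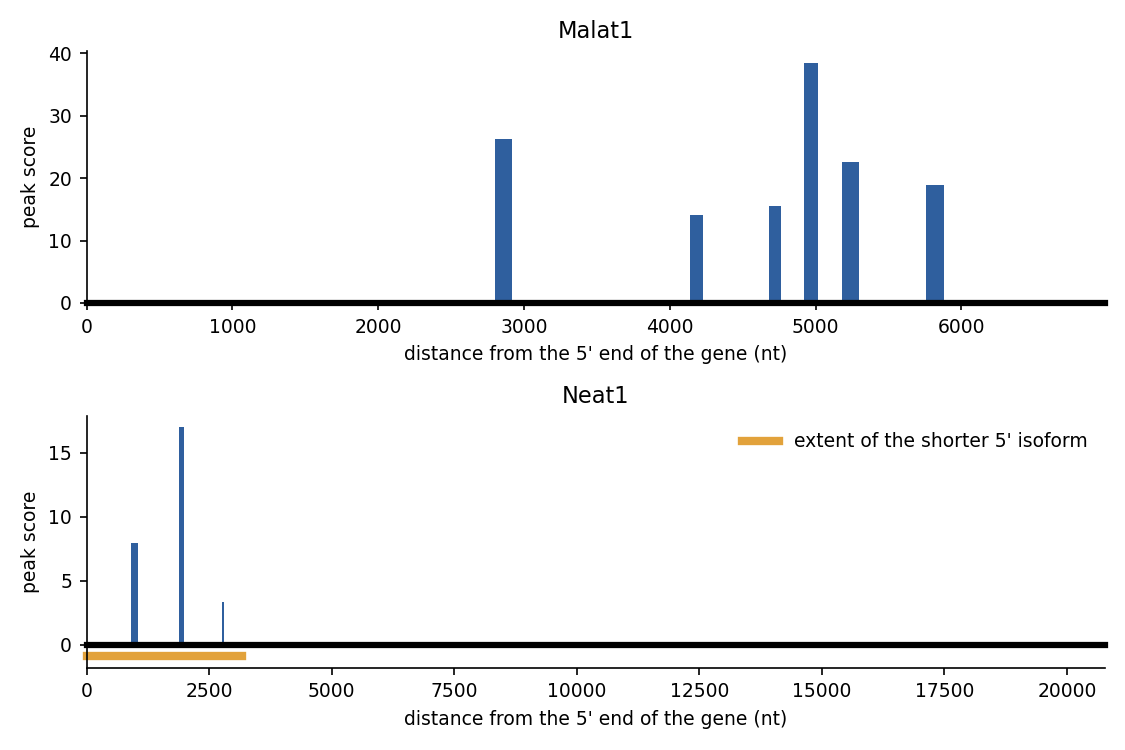
Position of each BAZ2A peak along Malat1 and Neat1 (x axis, nt from the 5' end of the gene) and its score (bar height, from 0). The 6 Malat1 peaks lie between positions 2804 and 5882, and the 3 Neat1 peaks lie within the extent of the shorter 5' isoform, drawn in orange.

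Neat1, the lncRNA that builds paraspeckles, lies beside Malat1 at chr19:5824708-5845478. It had 3 exonic peaks, which scored 7.94, 17.01 and 3.36 from the 5' to the 3' end. All 3 lay between positions 907 and 2801 of 20771 nt. The shorter isoform of Neat1 ends 3172 nt from the 5' end, so reads there cannot be assigned to the short or the long isoform. The strongest Neat1 peak is printed with 5 nt around the mode in capitals.
Neat1, chr19:5843498-5843587 (minus strand): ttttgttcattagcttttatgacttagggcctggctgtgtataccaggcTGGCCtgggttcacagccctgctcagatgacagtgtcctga
Of 25 annotated lncRNAs on a list of nuclear-retained and chromatin-associated transcripts, 7 had a peak (28.0%, beside 1.01% of all lncRNA genes), with 16 peaks in all. Apart from Malat1, Neat1 and Kcnq1ot1, each of them had 1 intronic peak of low score. The value was 2.80 in Firre, a lncRNA that escapes X inactivation, 2.41 in Pvt1, the neighbour of Myc, 2.22 in Mirg, a host of imprinted miRNAs, and 2.10 in Jpx, an activator of Xist. The Jpx peak lay wholly in repeat sequence and shared its sequence with 15 other listed peaks, 10 in the same and 5 in the opposite orientation. No peak was listed for Xist, H19 or Meg3, and transcript levels were not analysed here. This list, and those of snoRNA hosts, miRNA hosts and pluripotency genes below, were picked with earlier results of these data known. Their shares beside that of all lncRNA genes are a description.

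Kcnq1ot1, the imprinted lncRNA that runs antisense through Kcnq1, lies at chr7:143203458-143296549 on the minus strand. Its 3 peaks, all exonic in this unspliced gene, scored 9.73, 4.46 and 3.46. All 3 were also listed under Kcnq1 on the plus strand, with scores of 9.75, 4.47 and 3.46. The first of them lies in the coding sequence (CDS) of Kcnq1 and the other two in its introns. The scores on the 2 strands differed by less than 1%, so the list does not say which RNA was bound. The first peak is shown as read on the Kcnq1ot1 strand, with 5 nt around the mode in capitals.
Kcnq1ot1, chr7:143261251-143261323 (minus strand): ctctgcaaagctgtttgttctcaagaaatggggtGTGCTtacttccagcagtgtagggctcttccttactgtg

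Of 16 annotated snoRNA hosts, 6 had a peak (37.5%, beside 1.01% of all lncRNA genes): Gas5, Snhg1, Snhg12, Snhg15, Zfas1 and Epb41l4aos. These genes are spliced lncRNAs with snoRNAs in their introns. Of their 12 peaks, 10 lay at a snoRNA. Gas5 had 4 peaks, of 6.37 at Snord80, 3.91 at a SNORD81 copy, 3.83 at Snord78 and 1.43 at a SNORD24 copy. The 2 peaks of Snhg1 scored 16.2 at Snord22 and 5.66 at a SNORD30 copy. The single peak of Snhg12 scored 20.2 at Snora61, and that of Snhg15 scored 3.03 at Snora9. Zfas1 had peaks of 5.19 and 3.86 at its SNORD12/SNORD106 copies and another of 6.81 in an exon, outside any snoRNA.

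Over all lncRNA genes, 13 peaks lay at a snoRNA on the same strand. The other 3 were in Gm28496, which spans Snord88c and Snord88a, and in 2410006H16Rik, the host of Snord65. Of the 13, 10 lay wholly inside the snoRNA and the lowest overlap was 79.4% of the peak. All 13 were intronic in most of the transcripts that span them. In Gas5, for example, the Snord80 peak was exonic in 1 of 17 transcripts. The exonic call of 10 of them therefore rests on the smaller number of transcripts, and only 2 of the 15 peaks at a snoRNA or miRNA, both in Mir17hg, were exonic in every transcript over the peak. The snoRNAs and miRNAs of an opposite strand were not counted here. Among those, 2 peaks of 1600010M07Rik, over Snora23 and a SNORA13 copy, were listed on both strands.

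**Figure D3:**
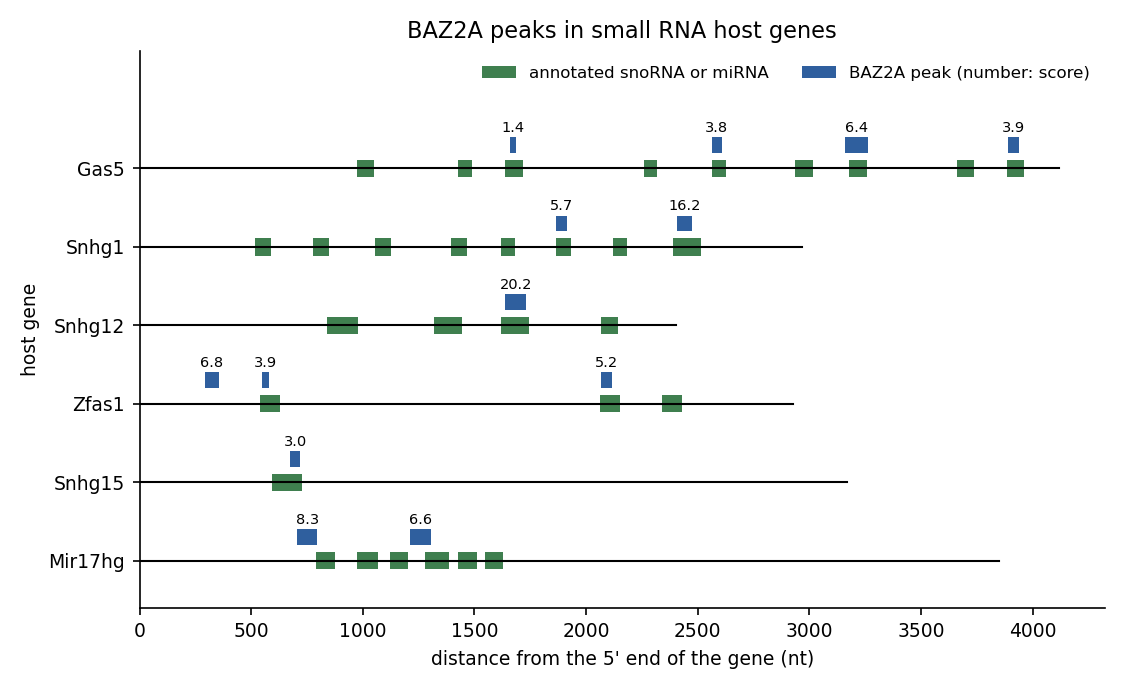
Host genes of small RNAs (y axis) drawn from their 5' end (x axis, nt), with annotated snoRNAs or miRNAs in green and BAZ2A peaks in blue, each with its score. The peaks of Gas5, Snhg1, Snhg12 and Snhg15 sit over a snoRNA, as do 2 of 3 in Zfas1, while those of Mir17hg sit at the 5' edge of 2 miRNA hairpins.

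The peaks at snoRNAs and tRNAs are shown to make plain how much of each is the small RNA. Capitals mark the bases inside the small RNA as RefSeq annotates it, which for Snora61 is shorter than in GENCODE.
Snhg12, chr4:132310262-132310356 (plus strand): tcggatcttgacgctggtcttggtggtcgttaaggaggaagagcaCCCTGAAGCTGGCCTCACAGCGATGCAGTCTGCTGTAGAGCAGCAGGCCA
Snhg1, chr19:8725883-8725951 (plus strand): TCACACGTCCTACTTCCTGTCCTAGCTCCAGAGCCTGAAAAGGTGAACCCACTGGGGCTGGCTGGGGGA
Gas5, chr1:161037582-161037683 (plus strand): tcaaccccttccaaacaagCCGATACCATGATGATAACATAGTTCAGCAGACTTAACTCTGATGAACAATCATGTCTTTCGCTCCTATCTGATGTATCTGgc
B230208H11Rik, chr10:12922572-12922617 (minus strand): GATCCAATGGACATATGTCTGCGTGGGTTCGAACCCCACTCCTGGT
4930586N03Rik, chr13:23317501-23317539 (plus strand): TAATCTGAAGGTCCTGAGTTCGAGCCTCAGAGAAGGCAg
Gm15738, chr16:13437321-13437417 (minus strand): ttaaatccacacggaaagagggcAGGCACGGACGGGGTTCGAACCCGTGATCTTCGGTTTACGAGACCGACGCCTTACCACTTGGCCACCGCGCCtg
4930557F10Rik, chr13:23300156-23300198 (minus strand): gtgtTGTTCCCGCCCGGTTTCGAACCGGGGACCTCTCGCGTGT
The Snhg1 peak of 69 nt and the B230208H11Rik peak of 46 nt hold no base outside the small RNA. In Snhg12 the capitals cover 50 of 95 nt, and in Gas5 they cover 81 of 102 nt.

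The tRNA genes, transcribed by RNA polymerase III, coincided with 5 lncRNA peaks. On the same strand, B230208H11Rik scored 20.1 at a tRNA-Leu, 4930586N03Rik scored 8.59 at a tRNA-Met and Gm17494 scored 6.20 at a tRNA-Arg. On the opposite strand, Gm15738 scored 31.9 at a tRNA-Thr and 4930557F10Rik scored 21.05 at a tRNA-Val. The sequences of the last pair therefore read as the reverse complement of the tRNA. These genes, apart from Gm15738, were chosen after their values were seen.

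Mir17hg, the host of the miR-17-92 cluster, was the only one of 8 annotated miRNA hosts on the list with a peak (12.5%, beside 1.01% of all lncRNA genes). Its peaks of 8.32 and 6.65 lay upstream of 2 of the 6 miRNAs of the cluster, miR-17 and miR-20a. The first peak ran 4 nt into the 84 nt of the Mir17 hairpin and ended 10 nt before the mature miR-17-5p. The second ran 27 nt into the 107 nt of the Mir20a hairpin and ended on the first base of miR-20a-5p. Capitals mark the hairpin in the peaks and the seed, bases 2 to 8, in the mature miRNAs.
Mir17hg, chr14:115043585-115043674 (plus strand): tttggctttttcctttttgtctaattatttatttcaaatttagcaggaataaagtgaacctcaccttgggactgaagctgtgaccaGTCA
Mir17hg, chr14:115044090-115044183 (plus strand): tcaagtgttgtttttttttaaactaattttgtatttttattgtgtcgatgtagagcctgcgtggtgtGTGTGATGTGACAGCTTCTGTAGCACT
mmu-miR-17-5p: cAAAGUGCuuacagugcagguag
mmu-miR-20a-5p: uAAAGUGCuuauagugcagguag
The 2 mature miRNAs share the seed AAAGUGC. Neither peak reached a mature miRNA beyond that single base, and no peak was listed at Mir18, Mir19a, Mir19b-1 or Mir92-1.

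The highest-scored lncRNA peak was not in Malat1 but in an intron of the lincRNA Gm19951, at 107.3 (rank 15 of all peaks). The next, at 46.2, was in an intron of Gm15564, an antisense gene inside Kpna1, and it overlapped a Kpna1 peak of 89.0 on the other strand. The Gm19951 and Gm15564 peaks hold the same sequence. The 36 nt of the Gm15564 peak match the reverse complement of the Gm19951 peak at 97.2% identity, and 77 of the 79 nt of the Gm19951 peak match at 96.1%, also in reverse, the peak with the highest score of the whole list, an intronic peak of Jarid2 that scored 1000. A lower-scored lncRNA peak, of 4.79 in D130009I18Rik, matched the Jarid2 peak over 64 nt at 95.3% identity. Capitals mark the aligned bases.
Gm19951, chr12:99645590-99645668 (plus strand): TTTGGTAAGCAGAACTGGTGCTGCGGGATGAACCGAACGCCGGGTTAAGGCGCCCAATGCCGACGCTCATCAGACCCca
Gm15564, chr16:35981614-35981649 (minus strand): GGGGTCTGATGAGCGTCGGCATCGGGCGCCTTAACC
Jarid2, chr13:44869597-44869679 (plus strand): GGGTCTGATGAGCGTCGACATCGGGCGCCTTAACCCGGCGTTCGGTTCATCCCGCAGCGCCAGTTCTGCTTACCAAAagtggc
Read 5' to 3', the Jarid2 and Gm15564 peaks run alike, and the Gm19951 peak runs the other way. The Gm19951 peak had copies at 3 places of the genome and the Gm15564 peak at 6, at 95% identity or more over at least 90% of the peak, so a read from any of them could be placed at another. Neither peak matched the structural RNAs compared here, which held 28S ribosomal RNA only in part. Whether these peaks hold ribosomal RNA sequence could therefore not be checked and was not tested.

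In all, 23 of the 180 lncRNA peaks (12.8%) shared their sequence with a peak elsewhere in the list, and 17 of the 23 had such copies in both orientations. Among the 10 lncRNA peaks with the highest scores, 4 shared their sequence with a peak elsewhere in the list, in either orientation. The 4933436I20Rik peak, at 35.4, lay wholly in repeat sequence and matched 18 other peaks, with scores from 1.75 to 65.7, of which 10 ran the same way and 8 the opposite way. One of them was the Gm5535 peak, at 9.43.
4933436I20Rik, chr1:83681903-83681948 (minus strand): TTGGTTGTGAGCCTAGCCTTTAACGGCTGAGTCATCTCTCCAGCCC
Gm5535, chr2:144197648-144197693 (minus strand): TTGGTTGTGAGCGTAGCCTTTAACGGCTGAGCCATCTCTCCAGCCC
Over the whole set, 116 peaks matched a single place in the genome, 22 matched 2 to 25 places and 10 matched over 200. The other 32 gave no match in the search, not even with their own place, and none of them was longer than 26 nt. A single match at these cut-offs is therefore not proof of unique sequence. The Gm26642 peak matched 1 place, yet shared sequence with 18 other listed peaks under the looser cover of at least 50% of the shorter peak. The A330023F24Rik peak gave no genome match and shared sequence with 16.

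Platr21, one of the pluripotency-associated transcripts named from ESC expression, had a summed score of 83.6 over 5 intronic peaks, rank 3 of the lncRNA genes and rank 22 of all genes. The gene lies on the minus strand at chrX:139240226-139357738, and its peaks scored 37.6, 18.3, 13.4, 10.3 and 4.11. All 5 fell between positions 20826 and 22729 of a gene of 117513 nt and matched a single place in the genome. All also lay within Trap1a on the other strand, 1 of them over an exon of it. The peaks of 13.4 and 10.3 overlapped listed Trap1a peaks of 11.6 and 8.76 with a different start, so a strand cannot be given for them. The other 3 Platr21 peaks overlapped no peak on the other strand. The peak of 13.4 lay wholly in repeat sequence and shared sequence with 1 peak elsewhere in the list, in the opposite orientation. Repeat sequence made up 52.3% of the peak of 37.6 and at most 33.3% of each remaining Platr21 peak. Of 31 annotated genes on the pluripotency list, 3 had a peak (9.68%, beside 1.01% of all lncRNA genes). Lncenc1, an ESC lncRNA, had intronic peaks of 3.18 and 2.69, and Platr31 had 1 of 6.46 that was also listed under Tigar.

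The intervals listed on both strands were then examined pair by pair. In 68 of the 74 the gene on the other strand was protein-coding, and these made 69 pairs. The other 6 peaks paired with genes that are not protein-coding: Gm20628 with Gm42743, 2410017I17Rik with Gm10499, and Gm2516 with Gm45341 and Gm45455. The score under the lncRNA divided by that under the protein-coding gene had a median of 0.990, with quartiles of 0.960 and 1.00 and a range from 0.682 to 1.10. The lncRNA had the lower score in 51 pairs, the higher in 17 and the same in 1. The mode was at the same position in 52 of 69.

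**Figure D4:**
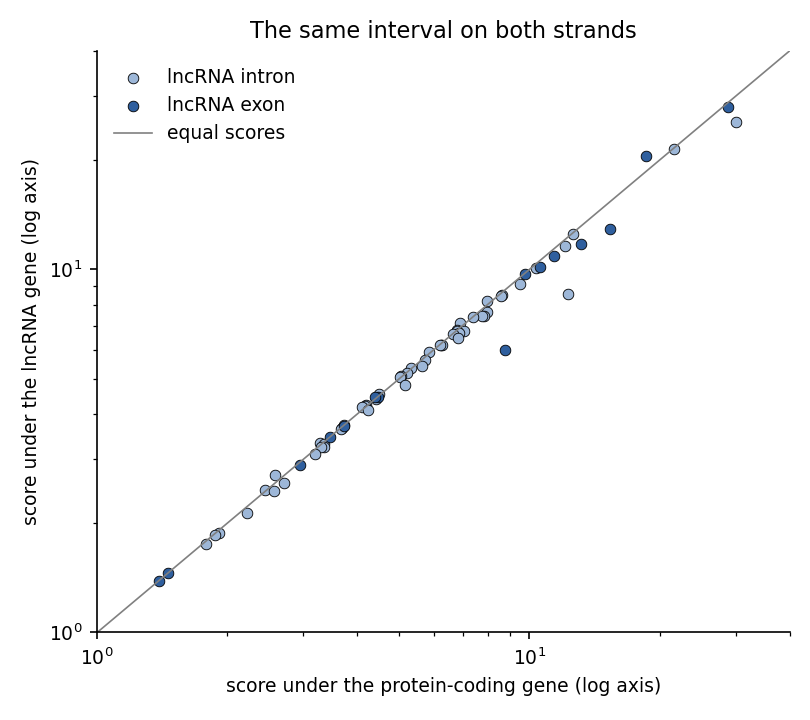
Score of the same interval under the protein-coding gene (x axis) and under the lncRNA gene on the other strand (y axis), both on log axes, with 1 point per pair and the line of equal scores. The 69 pairs lie along the line, with ratios from 0.682 to 1.10.

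Which of the strands was bound cannot be told apart from such pairs, and it was not tested. The annotation of each side is given as a description. Of the 69 pairs, 54 lay in an intron of the lncRNA, and in 29 of these the interval was an exon of the protein-coding gene, 17 times in an untranslated region (UTR) and 11 times in the CDS. The reverse, a lncRNA exon over an intron of the protein-coding gene, occurred 3 times. In 25 pairs both sides were intronic and in 12 both were exonic.

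The base composition is given as a description too, and its relation to the strand that was bound was not tested. On the lncRNA strand, the 68 peaks held 17.7% ± 7.95 U and 27.1% ± 9.30 A (SD over peaks), so that the other strand held the reverse. The 96 lncRNA peaks listed on a single strand and under no protein-coding gene held 26.9% ± 13.2 U and 22.8% ± 13.9 A, and the 2918 peaks of protein-coding genes 26.6% ± 12.5 U and 19.4% ± 10.5 A. More A than U was found in 72.1% of the paired peaks (49 of 68, Wilson 95% interval 60.4 to 81.3), in 33.3% of the unpaired lncRNA peaks (32 of 96, 24.7 to 43.2) and in 28.3% of protein-coding peaks (825 of 2918, 26.7 to 29.9). Peaks that share a gene are not independent, and no test was made.

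The highest-scored pairs were Gm10252 with Ftl1, the light chain of ferritin (28.0 and 28.8), D030047H15Rik with Ttyh1 (25.5 and 30.0), 5330438D12Rik with Cnot2, a subunit of the CCR4-NOT complex (21.4 and 21.6), and Gm45774 with Mt2, a metallothionein (20.5 and 18.6). The D030047H15Rik peak, of 29 nt, matched a tRNA sequence on the opposite strand at 96.4% identity. It also shared its sequence with 2 other listed peaks, both in the opposite orientation. Gm45774 had a second peak, of 10.1, that was also listed under Mt2, at 10.6. AC174471.1 had 6 intronic peaks between 1.85 and 7.41 in a gene that runs antisense through Dnah8, a dynein heavy chain. For 5 of its 6 peaks the same interval stood under Dnah8, with scores within 1% of those of the lncRNA. The AC174471.1 peaks of 6.81 and 2.56 lay wholly in repeat sequence, and each matched over 200 places in the genome. Among lncRNAs with an exonic peak not shared with a protein-coding gene on the same strand, the 5 with the most peaks per kb of merged exons were Epb41l4aos and 4 antisense genes. Of these, Gm17178 (5.60 peaks per kb, over Aspscr1), Gm17232 (2.21, over Tdh), Gm44170 (1.82, over Sec61a1) and Gm45732 (1.71, over Urb2) had only peaks listed on both strands. The density counts all peaks of a gene, and 1 of the 2 Gm17178 peaks was intronic, over 357 nt of merged exons. Gm17232, Gm44170 and Gm45732 had 1 peak each, over 453 to 586 nt of merged exons. Epb41l4aos, at 2.33 per kb, had an exonic peak of 5.25 on a single strand. Without the limit to such exonic peaks these 5 genes ranked from 2 to 24 of 135, and Gm17106 ranked 1, with 6.54 per kb and 3 intronic peaks. Gm20628, a gene antisense to a histone cluster, had a peak of 28.9 opposite an exon of Hist2h3b that was listed on its own strand alone, and a second of 14.9 that was also listed under Gm42743 at 16.4. The peak of 28.9 matched 3 places in the genome, so a read from any of them could be placed at another.

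The 10 peaks shared on the same strand lay in 8 lncRNA genes, and 9 of them in an intron of the lncRNA. The highest was in Sox2ot, a lncRNA that runs through Sox2, at 8.46, and the interval lies in the CDS of Sox2, a pluripotency factor. The others had scores from 1.58 to 6.80, among them 6.19 in Gm28037 over the CDS of Rpl24, a ribosomal protein gene, and 3 peaks of Gm28496 that stood also under 2410002F23Rik.

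Among exonic peaks with none of these overlaps, those outside Malat1, Neat1 and Gm20628 scored no higher than 8.34, beside a median of 4.28 over all peaks. The highest were 8.34 in 2900052L18Rik, 6.81 in Zfas1 and 6.15 in 1600020E01Rik. The first and Zfas1 are printed, with 5 nt around the mode in capitals.
2900052L18Rik, chr11:120231017-120231152 (minus strand): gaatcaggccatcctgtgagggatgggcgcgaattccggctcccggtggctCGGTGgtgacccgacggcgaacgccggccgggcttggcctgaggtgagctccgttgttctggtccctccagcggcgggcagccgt
Zfas1, chr2:167063226-167063291 (plus strand): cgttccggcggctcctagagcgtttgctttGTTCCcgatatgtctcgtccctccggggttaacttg

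Compared with the 2918 peaks of protein-coding genes, the lncRNA peaks had a median score of 5.14 (quartiles 3.49 and 8.43) against 4.20 (2.98 and 6.66). Of the lncRNA peaks, 63.9% (56.6 to 70.5) were in the upper 50% of the list by score, against 48.9% (47.1 to 50.8). The 96 peaks on a single strand and under no protein-coding gene gave 61.5% (51.5 to 70.6) and a median of 5.02. Median lengths were 59 and 58 nt, and mean GC content was 51.9% ± 14.6 and 54.0% ± 13.9 (SD over peaks). The share in exons was lower, at 31.1% (24.8 to 38.2) against 51.8% (50.0 to 53.6), and was 39.6% (30.4 to 49.6) among the 96. Repeat sequence made up at least 50% of the peak in 19.4% (14.3 to 25.8) and 21.9% (20.4 to 23.4).

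**Figure D5:**
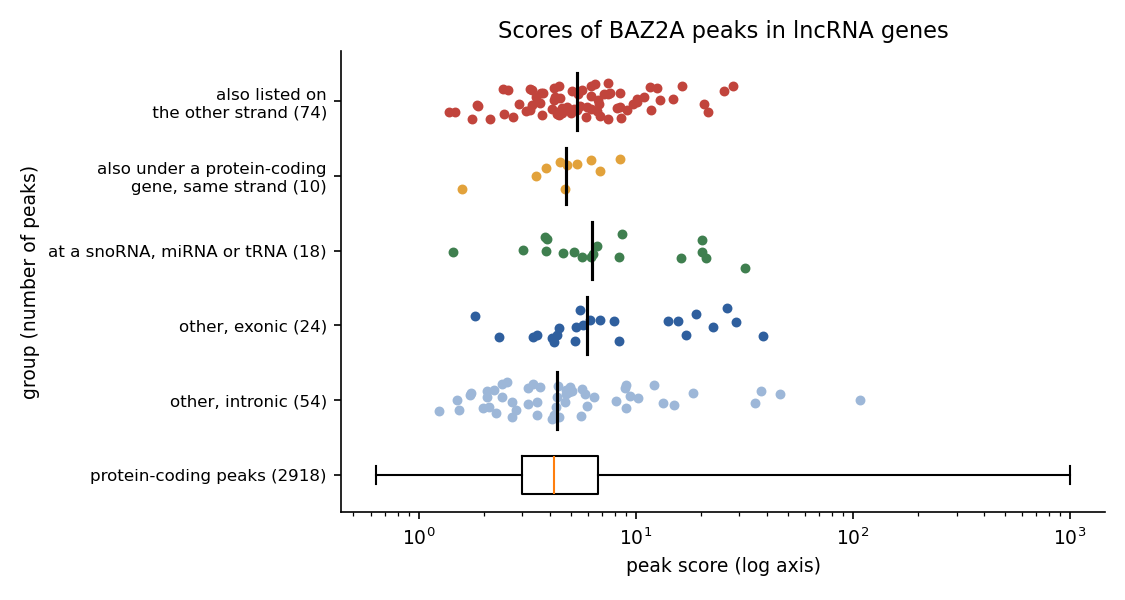
Scores (x axis, log) of the BAZ2A peaks in lncRNA genes, with 1 point per peak and a black line at the median of each group (y axis), above a box plot of the peaks of protein-coding genes (box, quartiles; whiskers, lowest and highest). The group medians run from 4.34 for other intronic peaks to 6.28 for peaks at small RNAs, beside 4.20 for protein-coding peaks.

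A small RNA on the same strand was found at 8.33% (5.11 to 13.3) of lncRNA peaks and at 1.92% (1.48 to 2.48) of protein-coding peaks. U stood at the mode in 17.8% (exact binomial 95% interval 12.5 to 24.2) and 24.7% (23.1 to 26.3), and a G in 32.8% and 25.6%. Words of 6 letters were searched on the strand of the peak, and they may overlap each other. CCTCCT occurred in 4.44% (2.27 to 8.52) of lncRNA peaks and 9.06% (8.08 to 10.2) of all other peaks, and TCCTCC in 5.00% (2.65 to 9.23) and 8.21% (7.27 to 9.26). CTCCTC occurred in 5.56% (3.05 to 9.92) and 7.60% (6.70 to 8.61), CCCCTC in 3.89% (1.90 to 7.81) and 7.02%, and AGATCG in 3.33% (1.54 to 7.08) and 2.21% (1.73 to 2.80). These words were picked with earlier results of these data known, and the shares are a description.

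The 54 intronic peaks without any of these overlaps came from 46 genes. Their median score was 4.34 and their median length 45.5 nt, and 31.5% (20.7 to 44.7) were at least 50% repeat sequence. The Gm5577 peak scored 15.0 and matched peaks in Atf2 (190.0) and Zfp791 (44.2), the first in the same and the second in the opposite orientation. After the peaks of Gm19951, Gm15564, Platr21, 4933436I20Rik and Gm5577, the highest was 12.1 in the lincRNA AU020206, where 202 nt matched a single place in the genome.

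Of the 180 peaks, 18 were 18 nt or shorter. In 8 of the 18, among them peaks of 9.03 in Gm37245 and 8.96 in AC174800.1, either strand held the letters ATTG and AGAT with 3 bases between them, a pattern that 102 of all 3127 peaks held. Per the methods, these letters at this spacing belong to the reverse transcription primer of the uncrosslinked libraries. Whether the reads at these peaks hold primer sequence was not tested. AGATCG, searched above, is part of the primers of both kinds of library.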

How the data were processed

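iCLIP libraries were made from nuclei of 3 UV-crosslinked and 3 uncrosslinked ESC cultures, and GEO titles gave the groups. According to the methods, the authors trimmed reads with Flexbar, mapped them to mm10 with STAR 2.6, removed duplicates by their molecular identifiers with UMI-tools 0.5.1, and called peaks with omniCLIP at its default settings. How the uncrosslinked libraries entered the calling is not given in the sources used here. The deposited file holds 1 list of the authors with 1 score per peak, on a scale that is not stated. The genes of that list are Ensembl genes. The only other values it holds are the start, end and mode of each peak. Duplicate removal, mapping of repeated sequence and the assignment of 1 interval to several genes were set upstream and could not be changed here.

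Peaks were joined by gene ID to GENCODE M21 (GRCm38), which gave a type for 2286 of the 2288 listed genes, among them all 135 lncRNA genes. A peak was exonic where its midpoint lay in an exon of any transcript of its gene. Sharing meant an identical start and end. Sequence and soft-masked repeats came from the RefSeq GRCm38.p6 genome, and small RNAs from GENCODE and RefSeq. Sequences were compared with blastn 2.17.0 at an e-value of at most 1e-05, with each other (95% identity over at least 50% of the shorter peak), with the genome (95% identity over 90% of the peak) and with 4721 structural RNAs (over 50% of the peak). Python 3.11.15 with pandas 2.3.3, numpy 2.4.6, scipy 1.17.1 and pysam 0.24.0 and samtools 1.23.1 were used. Wilson 95% intervals are given for shares, and exact binomial ones for the base at the mode. For 200 of 200 made-up peaks in 110 lncRNA genes, the code returned the set values of exon or intron, double listing, sharing and base at the mode. The expected exon or intron class came from the same gene models and exon lookup, so this checks the running of the code only. Small RNAs, repeats and gene types were not part of it.

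The genes named are Malat1, the 10 with the highest summed score, the 5 with the most peaks, the 5 with the most peaks per kb of merged exons among those with an exonic peak not shared with a protein-coding gene on the same strand, members of the lncRNA lists, and genes with a peak at a small RNA; other genes are named as examples chosen after their values were seen. The members, lists and words were chosen with earlier results of these data known. Sequence on 1 chromosome and the peak of 1 named gene are not reported here. Alternatives covered the score threshold, gene types, short peaks, shared peaks, repeats and the definition of an exon.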

Additional observations from a re-analysis of the deposited data

How the results depend on the processing

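Across 10 results, 52 alternative values were computed. Of these, 42 lay within 1.5 times a count or inside the 95% interval of a share, median or mean, and 10 lay outside. With the 50% of peaks of highest score alone, the number of genes went from 135 to 87 and the median score to 6.81, as the choice itself sets, and the median length went to 79 nt. With lincRNA and antisense genes alone, 95 genes were counted, the share of peaks also listed under a protein-coding gene on the same strand went to 0% and the share at a small RNA to 2.54%. Counting any soft-masked base raised the repeat share to 41.7%. The next alternatives were chosen after seeing the data. Without peaks listed on both strands, 80 genes were counted, 14.2% of peaks lay at a small RNA and 9.43% were shared on the same strand. Counting RefSeq small RNAs on either strand gave 12.8%. A shared interval on either strand was found for 43.3% of peaks. Requiring an exon in every transcript over the peak lowered the exonic share to 21.7%. Peaks per kb of Malat1 were 0.859 by gene length and by merged exons, but its rank went from 7 to 56. The density by merged exons also counts the intronic peaks of the other genes. No paired analysis was possible because the list pools all libraries. For the same reason no library could be left out, and depth per peak is unknown, which limits every score and count given.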
